A study of Mus musculus with 10 samples.

Results

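The genes described here are 10 neighbours of *Dach1* on mouse chromosome 14, measured in dorsal root ganglia (DRG) at E18.5, shortly before birth. They are *Klhl1*, *Mzt1*, *Bora*, *Dis3*, *Pibf1*, *Klf5*, *Klf12*, *Tbc1d4*, *Lmo7* and *Kctd12*. They were chosen by name for their position and not by their measured values, although earlier results of these data were known. Each was found by its Ensembl identifier among the 55414 genes listed for every library. All 10 passed the filter on low counts, which left 17490 genes for the test.

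DRG are the clusters of sensory neurons beside the spinal cord, and bulk RNA-sequencing was performed on 5 control and 5 *WD1* cKO embryos. In *WD1* cKO embryos, a *Wnt1*-Cre transgene is active in the neural crest, the source of DRG neurons and glia, and deletes the floxed exon of *Dach1*, which codes for a transcription cofactor. Controls were littermates, and the sample labels give both groups the genotype *Dach1* flox/flox, with Wnt1Cre/+ in a single group and Wnt1+/+ in the other. The floxed line had a mixed C57Bl/6J and CD1 background. The titles and the genotype entries of the samples contradict each other as to which libraries carry Cre, and the titles were followed. Since every library carries the floxed allele by its label, the comparison bears on the Cre transgene and the deletion, and an effect of the floxed allele that both groups share could not be measured. The labels give neither litter nor batch, so p-values measure the spread between these libraries, part of which may be technical. In whole ganglia, fewer cells of a type and less RNA per cell cannot be told apart.

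The neighbours have unrelated functions, and a shared position is what joins them. *Mzt1*, *Bora* and *Pibf1* belong to the machinery of centrosomes and cell division, *Dis3* to RNA decay, and *Klf5* and *Klf12* to the Krüppel-like transcription factors. *Klhl1*, *Tbc1d4*, *Lmo7* and *Kctd12* act in the cytoskeleton, in vesicle traffic, at cell junctions and at GABA-B receptors, respectively. Altering DNA at a locus, for example by removing an exon or leaving a recombination site, can in principle change the activity of genes nearby, which is why neighbours are a usual check of a conditional allele.

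Distances and sequence come from annotations of the GRCm38 build, whereas the reads were counted on GRCm39, so positions serve to order the genes and not to locate reads. *Klhl1* lies on the centromeric side of *Dach1*, at 1.27 Mb. The other 9 lie on the telomeric side, *Mzt1* at 0.865 Mb, *Bora* at 0.876 Mb, *Dis3* at 0.905 Mb, *Pibf1* at 0.93 Mb, *Klf5* at 1.13 Mb, *Klf12* at 1.7 Mb, *Tbc1d4* at 3.27 Mb, *Lmo7* at 3.56 Mb and *Kctd12* at 4.81 Mb. *Mzt1* and *Bora* stand head to head, on opposite strands, with 87 bases between their annotated ends. *Dis3* and *Pibf1* also face away from each other and share 347 bases on opposite strands. The strand setting of the counting is not given in the sources used here, so reads in these shared bases cannot be assigned with certainty, and the same holds for *Klf12* and the antisense gene 4930517O19Rik that overlaps it.

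RefSeq promoter windows, each holding 250 bases before and 50 after a transcription start, were at hand for 8 of the 10 neighbours. Stretches outside annotated exons are given for *Mzt1* and *Tbc1d4*, the neighbours with the lowest p-values in the genotype comparison, and for *Kctd12*, which varied most with the replicate number. Each is written 5′ to 3′ on the minus strand of GRCm38.p6, with GC boxes (GGGCGG, or CCGCCC on the other strand) in capitals. The *Mzt1* stretch (chr14:99046135-99046221) is the whole gap between *Mzt1* and *Bora*, the *Tbc1d4* stretch is chr14:101609192-101609441 and the *Kctd12* stretch is chr14:102982638-102982887.
Mzt1: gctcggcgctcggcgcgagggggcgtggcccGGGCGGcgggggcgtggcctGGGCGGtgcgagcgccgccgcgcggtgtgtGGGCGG
Tbc1d4: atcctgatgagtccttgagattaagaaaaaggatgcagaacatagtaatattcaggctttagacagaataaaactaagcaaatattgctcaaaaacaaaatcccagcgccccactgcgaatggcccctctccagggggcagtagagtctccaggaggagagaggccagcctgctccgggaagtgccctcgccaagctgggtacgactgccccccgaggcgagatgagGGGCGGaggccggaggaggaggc
Kctd12: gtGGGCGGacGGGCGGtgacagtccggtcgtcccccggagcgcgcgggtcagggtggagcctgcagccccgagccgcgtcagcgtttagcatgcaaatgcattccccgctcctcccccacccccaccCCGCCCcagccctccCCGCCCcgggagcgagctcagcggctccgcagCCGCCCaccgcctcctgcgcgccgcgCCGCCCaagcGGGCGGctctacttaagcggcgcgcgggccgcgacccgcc
The *Mzt1* gap is 87.4% G or C and holds 3 GC boxes, the *Tbc1d4* stretch is 54.8% G or C with 1, and the *Kctd12* stretch is 77.6% G or C with 7. Neither CCAAT nor TTTGAA, 2 motifs of promoters of cell cycle genes, occurs in the stretches printed, on either strand. In its whole window of 300 bases, *Mzt1* holds 2 matches to CCAAT, 1 to TTTGAA and 4 to the GC box. For comparison, 37.4% of the 32851 promoter windows of the RefSeq table hold CCAAT, 35.7% hold the GC box and 17.9% hold TTTGAA, counted on both strands. These matches describe letters in the reference and are not measured binding sites.

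The genotype check came first. *Dach1* stood at 35.1, 38.5, 41.6, 37.1 and 37.4 CPM (counts per 1000000 counts of the library, scaled for composition by TMM) in control replicates 1 to 5. In *WD1* cKO replicates 1 to 5 it stood at 19.1, 20.7, 19.5, 20.3 and 20.4 CPM. The groups were far apart, with the lower values in the libraries titled as Cre carriers. Its log2 fold change, here always *WD1* cKO over control, was -0.92 (standard error 0.050, 95% interval -1.03 to -0.81; Benjamini-Hochberg adjusted p = 5.48e-06 in the quasi-likelihood test of edgeR). All exons contribute to this count, so RNA that lacks only the floxed exon is still included.

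None of the 10 neighbours passed either rule of the genotype test. With an adjusted p under 0.05, 0 of 10 were called by the quasi-likelihood test of edgeR (Benjamini-Hochberg), against 0.04% of all genes tested, and DESeq2's Wald test also called 0 of 10. By the study's cut-off, an unadjusted p under 0.005 and a log2 fold change beyond 0.15 in either direction, 0 of 10 were called, against 0.383% of all genes. At backgrounds this low, counts of 0 among 10 genes say little by themselves, and the sizes and intervals carry more. The fold changes of the 10 ran from -0.13 for *Lmo7* to 0.16 for *Tbc1d4*, and their 95% intervals reached from -0.38, for *Lmo7*, to 0.42, for *Klhl1*. No interval of a neighbour reached that of *Dach1*, whose upper end was -0.81. The median log2 fold change was 0.051 for the 10 and 0.0002 for all genes tested, and the median absolute value was 0.058 for the 10 and 0.053 for all genes. An unadjusted p under 0.05 was reached by 2 of 10, against 4.5% of all genes, and in DESeq2's Wald test by 1 of 10. Both were higher in *WD1* cKO embryos, a direction and threshold that 2.12% of all genes met, and 0 of 10 were lower, against 2.38%. They were *Mzt1* and *Tbc1d4*. By sign alone, 6 of 10 were higher, against 50.1% of all genes, and 4 of 10 lower, against 49.9%.

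**Figure D1:**
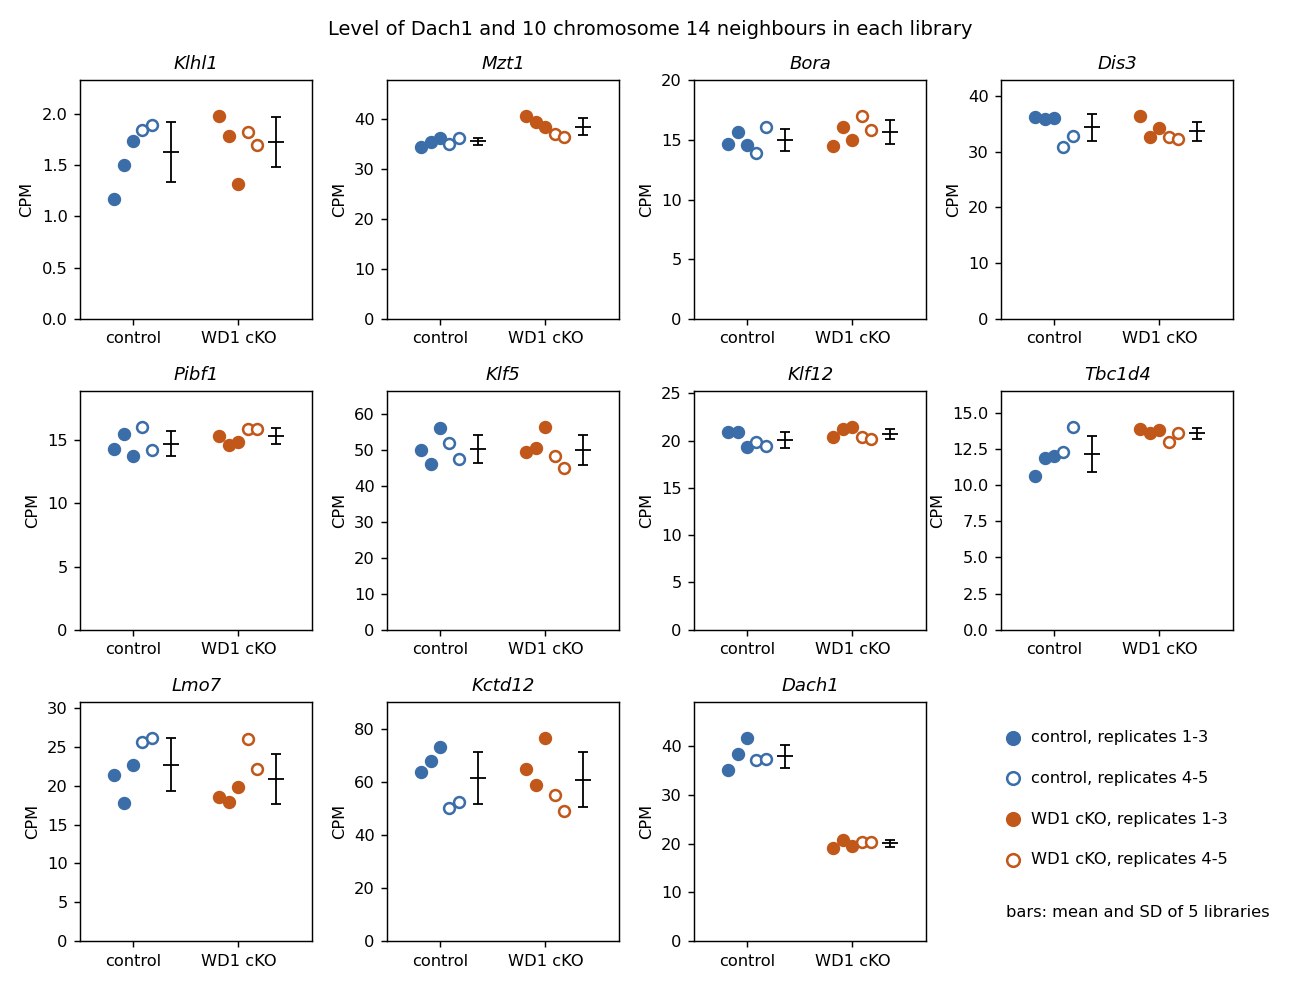
Levels in CPM of the 10 neighbours and *Dach1* in each library (vertical axes from 0), with control libraries in blue and *WD1* cKO libraries in orange, filled symbols for replicates 1 to 3 and open symbols for replicates 4 and 5. Bars give the mean and SD of 5 libraries. The groups are far apart for *Dach1*, touch without overlapping for *Mzt1*, and overlap for the other 9 neighbours.

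*Mzt1*, a small subunit of the gamma-tubulin ring complex from which microtubules grow, stood at 34.5, 35.5, 36.3, 35.1 and 36.2 CPM in control replicates 1 to 5. In *WD1* cKO replicates 1 to 5 it stood at 40.6, 39.5, 38.5, 37.0 and 36.5 CPM. The groups did not overlap, although replicate 5 of *WD1* cKO lay just above the highest control, and *Mzt1* was the only neighbour of the 10 of which this was true, against 1.06% of all genes. The gap is smaller than the effect of scaling, since with plain library totals the highest control was 36.6 CPM and the lowest *WD1* cKO library 36.4 CPM. The mean was 35.5 ± 0.749 CPM (SD, n = 5) in control and 38.5 ± 1.71 CPM (SD, n = 5) in *WD1* cKO embryos, 8.21% higher. For *Mzt1* the log2 fold change was 0.11 (standard error 0.040, 95% interval 0.026 to 0.20; unadjusted p = 0.0153, Benjamini-Hochberg adjusted p = 1.00, quasi-likelihood test of edgeR). The unadjusted p stayed between 0.00929 and 0.0448 over the 10 fits that each omitted a library. *Bora*, whose annotated end lies 87 bases away, had a log2 fold change of 0.06 (95% interval -0.07 to 0.20; unadjusted p = 0.347, edgeR's quasi-likelihood test).

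*Tbc1d4* encodes a Rab GTPase-activating protein, phosphorylated by Akt, that holds back the glucose transporter Glut4 inside fat and muscle cells. Its level was 10.6, 11.9, 12, 12.3 and 14 CPM in control replicates 1 to 5. In *WD1* cKO replicates 1 to 5 it was 13.9, 13.6, 13.8, 13 and 13.6 CPM. The *WD1* cKO libraries lay close together and above control replicates 1 to 4, while control replicate 5 was the highest of all 10 libraries. The means were 12.2 ± 1.24 CPM (SD, n = 5) in control and 13.6 ± 0.379 CPM (SD, n = 5) in *WD1* cKO embryos. The resulting log2 fold change was 0.16 (standard error 0.071, 95% interval 0.0049 to 0.31; unadjusted p = 0.0441, Benjamini-Hochberg adjusted p = 1.00, quasi-likelihood test of edgeR). Single libraries weighed on this value. Without control replicate 5 the log2 fold change was 0.21, the groups did not overlap, and the unadjusted p of 0.00495 in edgeR's quasi-likelihood test met the study's cut-off. Of the 10 fits that each left out a library, 2 gave an unadjusted p under 0.05, and the highest p of these was 0.108, without control replicate 1. With the level of *Xist* in the model the log2 fold change of *Tbc1d4* was 0.13 (unadjusted p = 0.125, quasi-likelihood test of edgeR), and with the replicate number as a block the unadjusted p was 0.0509.

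The remaining genes of cell division and RNA decay overlapped between the groups. *Bora*, an activator of Aurora A kinase at entry into mitosis, ranged from 13.9 to 16.1 CPM in control and from 14.5 to 17 CPM in *WD1* cKO libraries. *Pibf1*, a protein of the centriolar satellites around the centrosome, ranged from 13.7 to 16.0 CPM in control and from 14.6 to 15.9 CPM in *WD1* cKO libraries. Its log2 fold change was 0.06 (95% interval -0.07 to 0.18), with the *WD1* cKO range lying inside the control range. *Dis3*, the catalytic nuclease of the RNA exosome, ranged from 30.9 to 36.3 CPM in control and from 32.3 to 36.4 CPM in *WD1* cKO libraries, a log2 fold change of -0.03 (95% interval -0.15 to 0.090).

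Of the transcription factors, *Klf5*, best known from epithelia, ranged from 46.2 to 56.1 CPM in control and from 44.9 to 56.3 CPM in *WD1* cKO libraries. Its log2 fold change was -0.01 (95% interval -0.16 to 0.13), and its sign turned to 0.031 with the level of *Xist*, which marks female embryos, in the model. *Klf12*, which represses *Tfap2a*, ranged from 19.3 to 20.9 CPM in control and from 20.2 to 21.4 CPM in *WD1* cKO libraries. The log2 fold change of *Klf12* was 0.05 (95% interval -0.05 to 0.14), with 2 control libraries inside the *WD1* cKO range.

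*Klhl1*, an actin-binding protein of the BTB-kelch family first described in brain, was the least abundant neighbour and had 24 to 50 counts per control library and 36 to 59 per *WD1* cKO library. It ranged from 1.17 to 1.89 CPM in control and from 1.32 to 1.98 CPM in *WD1* cKO libraries, and its log2 fold change of 0.07 had the widest 95% interval of the 10, from -0.28 to 0.42. The fold change was -0.02 without control replicate 1, the lowest library. *Klhl1* is the only neighbour of the 10 on the centromeric side, and with so few counts only a larger change in it would have been detectable than in the others. *Pcdh9*, a more abundant protocadherin gene at 3.9 Mb on the same side, had a log2 fold change of 0.09 (95% interval -0.02 to 0.20).

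*Lmo7*, a LIM domain protein that binds afadin and alpha-actinin at cell junctions, was at 21.4, 17.8, 22.7, 25.6 and 26.1 CPM in control replicates 1 to 5. In *WD1* cKO replicates 1 to 5 it was at 18.6, 17.9, 19.8, 26.0 and 22.1 CPM. The ranges of the groups overlapped widely, and the log2 fold change was -0.13 (95% interval -0.38 to 0.13; unadjusted p = 0.307, edgeR's quasi-likelihood test). The unadjusted p was 0.097 with replicates 1 to 3 against 4 to 5 as a term and 0.0536 with the replicate number as a block. *Kctd12*, an auxiliary subunit that shapes the response of GABA-B receptors, was at 63.5, 67.7, 72.9, 50.2 and 52.5 CPM in control replicates 1 to 5. In *WD1* cKO replicates 1 to 5 it was at 64.9, 58.8, 76.3, 54.8 and 49.0 CPM. Its log2 fold change was -0.01 (95% interval -0.28 to 0.26), and in both groups replicates 4 and 5 were the lowest.

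Levels were also compared by replicate number, where the share of neighbours without overlap was near that of all genes. Replicates 1 to 3 and 4 to 5 left 1 of 10 neighbours, *Kctd12*, without overlap, against 11.2% of all genes tested. Over all 10 libraries, *Kctd12* lay between 58.8 and 76.3 CPM in replicates 1 to 3 and between 49.0 and 54.8 CPM in replicates 4 and 5, a difference of -0.38 in mean log2 CPM. *Lmo7* moved the opposite way, from 17.8 to 22.7 CPM in replicates 1 to 3 and from 22.1 to 26.1 CPM in replicates 4 and 5, a difference of 0.34. *Lmo7* was without overlap inside each group but overlapped when the groups were joined. Replicates 1 to 3 and 4 to 5 were known to differ from earlier results of these data, and the labels attach no batch to these numbers, so the split is given without a test. Red blood cell markers summed to between 509 and 2460 CPM in replicates 1 to 3 and between 155 and 243 CPM in replicates 4 and 5, and endothelial markers to between 260 and 295 CPM in the first set and between 242 and 257 CPM in the other. The part of either cell type in the levels of *Kctd12* and *Lmo7* was not tested.

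**Figure D2:**
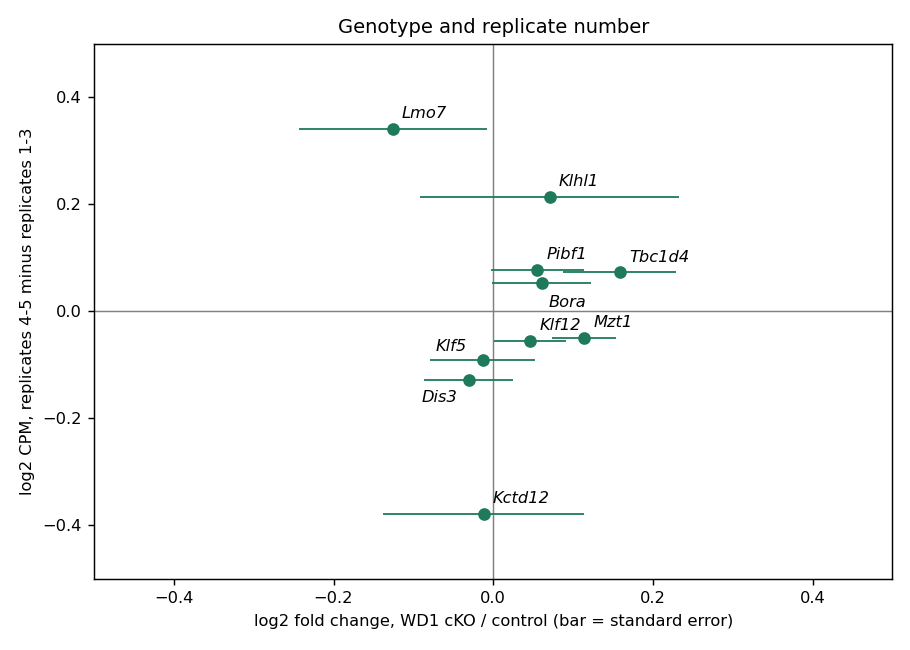
For each of the 10 neighbours, the log2 fold change of *WD1* cKO over control with its standard error (horizontal axis) is set against the difference in mean log2 CPM between replicates 4 to 5 and replicates 1 to 3 (vertical axis). *Lmo7* (0.34) and *Kctd12* (-0.38) lie far from 0 on the vertical axis, while no neighbour lies beyond 0.16 in either direction on the horizontal axis.

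The genotype differences were then taken within each set of replicates. *Mzt1* was higher in *WD1* cKO embryos by 0.16 in mean log2 CPM within replicates 1 to 3 and by 0.045 within replicates 4 and 5. For *Tbc1d4* the same differences were 0.26 and 0.014. *Lmo7* was lower in *WD1* cKO embryos in both sets, with differences of -0.13 and -0.11. *Dach1* was also lower in both, with differences of -0.95 and -0.87. Of the other 7 neighbours, *Bora*, *Pibf1* and *Klf12* were higher in both sets by 0.015 to 0.13, and *Klhl1*, *Dis3*, *Klf5* and *Kctd12* had opposite signs in the sets. The higher means of *Mzt1* and *Tbc1d4* thus came mostly from replicates 1 to 3, and whether the sets differ was not tested.

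Markers of other cells were set beside these values. Sensory neuron markers summed to between 6780 and 7180 CPM in control and between 6720 and 6990 CPM in *WD1* cKO libraries, as fits the labelled tissue. All 6 markers of dividing cells had a positive log2 fold change, from 0.12 to 0.23. In edgeR's quasi-likelihood test 1 had an unadjusted p under 0.05, against 4.5% of all genes, and 0 an adjusted p under 0.05, against 0.04%. The sum of these markers was 204 to 254 CPM in control and 218 to 281 CPM in *WD1* cKO libraries, and their part in the value of *Mzt1* was not tested. Skeletal muscle markers summed to between 28.2 and 197 CPM in control and between 51.3 and 108 CPM in *WD1* cKO libraries. All 6 had a negative log2 fold change, from -0.79 to -0.48, whereas *Tbc1d4* was higher. None of the 6 had an unadjusted p under 0.05 in edgeR's quasi-likelihood test, and their part in the value of *Tbc1d4* was not tested. Spinal cord markers summed to 12.5 CPM in control replicate 3 and to at most 1.13 CPM in the other libraries. Without that library, 0 of 10 neighbours were called and the log2 fold changes of *Mzt1* and *Tbc1d4* were 0.12 and 0.15, while that of *Kctd12* turned to 0.058 and that of *Klf5* to 0.028. Markers of epithelium, where *Klf5* is best known, summed to between 74.2 and 99.7 CPM in control and between 79.0 and 103 CPM in *WD1* cKO libraries, nearly all of it *Cdh1*. The other markers of that list were hardly counted, with control means of 0.244 CPM for *Krt5*, 0.265 CPM for *Krt14* and 0.641 CPM for *Epcam*. The sum thus says little about epithelial cells.

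To see whether the 10 genes stand for their surroundings, every gene with a position within 10 Mb of *Dach1* was taken. Of 179 such genes, 33 passed the filter, the 10 neighbours and 23 others, and 83 of the 146 that did not pass had no count in any library. None of the 33 had an adjusted p under 0.05 (quasi-likelihood test of edgeR, Benjamini-Hochberg) or met the study's cut-off. By sign 21 of 33 were higher in *WD1* cKO embryos, against 50.1% of all genes, with a median log2 fold change of 0.020. Within 5 Mb 12 of 17 were higher, with a median of 0.055, beside 0.0002 for all genes tested. An unadjusted p under 0.05 was reached by 4 of 33, all of them higher and all within 5 Mb, against the 2.12% of all genes given above. *Mzt1* and *Tbc1d4* were among them, as was *Commd6*, which is named here after its values were seen. *Commd6*, at 3.46 Mb, averaged 21.3 ± 1.10 CPM (SD, n = 5) in control and 23.6 ± 0.927 CPM (SD, n = 5) in *WD1* cKO embryos. Its log2 fold change was 0.15 (unadjusted p = 0.0102, Benjamini-Hochberg adjusted p = 1.00, quasi-likelihood test of edgeR). The groups did not overlap for 3 of the 33 genes, *Mzt1* and *Commd6* included, against 1.06% of all genes, and these 3 lay within 5 Mb. With plain library totals they did not overlap for 2 of 33, against 1.05% of all genes. Genes of one stretch of chromosome are not independent of one another. *Pou4f1*, a transcription factor of sensory neurons that lies at 6.29 Mb, had a log2 fold change of -0.11 (unadjusted p = 0.0809, edgeR's quasi-likelihood test).

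**Figure D3:**
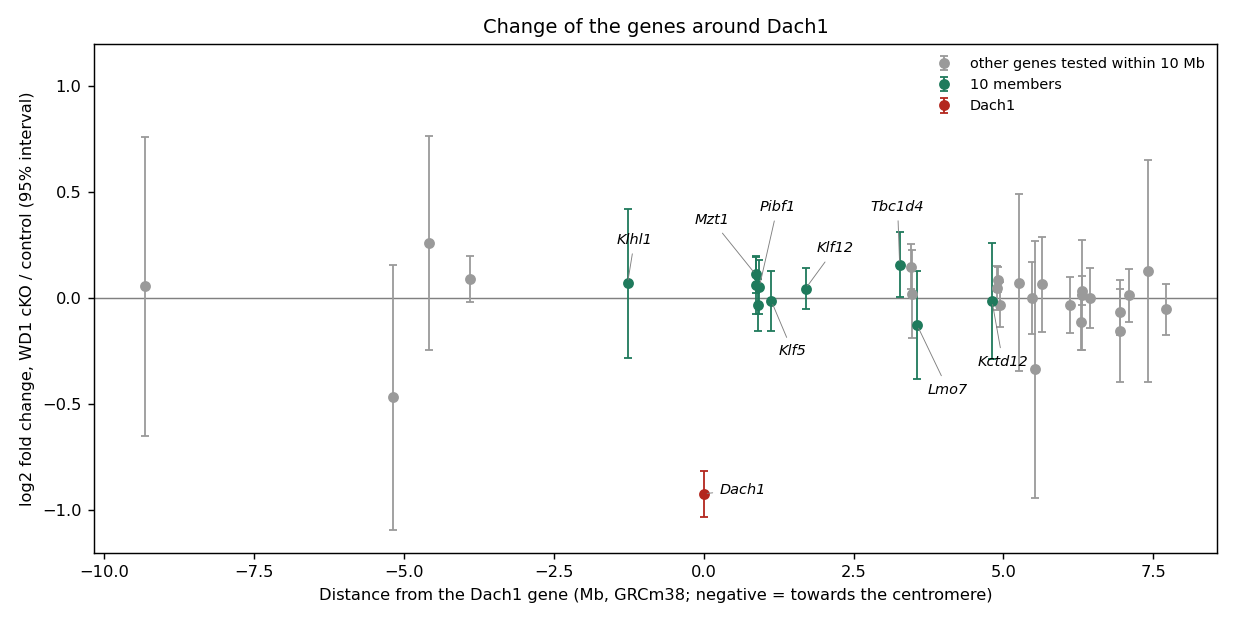
The log2 fold change of *WD1* cKO over control with its 95% interval (vertical axis) for the 33 genes tested within 10 Mb of *Dach1*, by distance in Mb from the *Dach1* gene (horizontal axis, GRCm38), with the 10 neighbours in green, the other 23 genes in grey and *Dach1* in red. *Dach1* stands alone at -0.92, and the intervals of 29 of the 33 genes include 0.

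Levels between genes were compared per kb of annotated exon and scaled to the same sum in every library (TPM), with the 5 control libraries for the spread. *Mzt1* was highest, at 58.5 ± 1.64 TPM (SD, n = 5), followed by *Kctd12* at 42.8 ± 7.26 TPM and *Klf5* at 40.8 ± 3.22 TPM. The ranges of *Kctd12* and *Klf5* overlapped, and that of *Mzt1* lay above both. *Dis3* came next at 18.7 ± 1.47 TPM, below these 3 and above the rest. *Bora* at 12.3 ± 0.808 TPM and *Klf12* at 12.1 ± 0.559 TPM could not be separated by their ranges. *Lmo7* at 8.01 ± 1.12 TPM overlapped *Tbc1d4* at 6.68 ± 0.659 TPM, which overlapped *Pibf1* at 6.34 ± 0.424 TPM. *Klhl1* was lowest at 1.03 ± 0.185 TPM, 56.6-fold below *Mzt1*. Among the tested protein-coding genes, control levels put *Mzt1* at the percentile 75.1, *Kctd12* at 66.2, *Klf5* at 64.9 and *Klhl1* at 4.51, so that the neighbours cover a wide range of abundance in DRG.

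**Figure D4:**
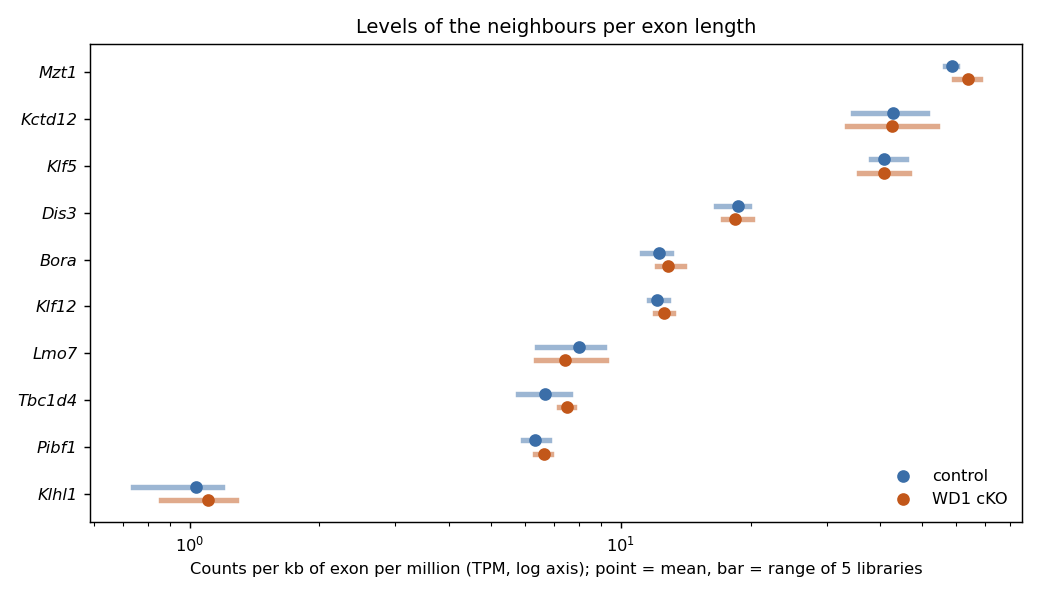
Control (blue) and *WD1* cKO (orange) levels of the 10 neighbours in TPM on a log axis, ordered by the control mean, with points for means and bars for the range of 5 libraries. The levels fall from 58.5 TPM for *Mzt1* to 1.03 TPM for *Klhl1*, and the bars of the 2 groups overlap or touch within every gene.

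Genes that work with the neighbours were taken from 9 lists drawn up by function. No listed gene had an adjusted p under 0.05 (quasi-likelihood test of edgeR, Benjamini-Hochberg), against 0.04% of all genes tested. Each list had between 6 and 15 genes tested, the neighbours included. The study's cut-off was met by 1 gene over all the lists, against 0.383% of all genes. That gene was *Tbc1d31*, a centriolar satellite protein, at 10.8 ± 0.777 CPM (SD, n = 5) in control and 12.6 ± 0.428 CPM (SD, n = 5) in *WD1* cKO embryos (log2 fold change 0.22, standard error 0.063; unadjusted p = 0.00395, edgeR's quasi-likelihood test). The other 13 of the 14 satellite genes tested, *Pibf1* among them, did not pass, and the list's median was 0.020. Of the 11 genes of the gamma-tubulin ring complex, *Mzt1* was the only gene with an unadjusted p under 0.05, against 4.5% of all genes. Its partners *Tubg1*, *Tubgcp3* and *Cdk5rap2* had log2 fold changes of -0.05, 0.0009 and -0.03, and the median of the list was -0.03, beside 0.0002 for all genes tested. The list of Aurora A and Plk1 at mitotic entry had 10 genes tested, with a median of 0.078 and a range from -0.09 to 0.19. *Bora* was at 0.06, and the most abundant genes were *Cdc25b* at -0.09, *Tpx2* at 0.13, *Ccna2* at 0.13 and *Cdk1* at 0.12. The less abundant *Aurka* and *Plk1* were at -0.03 each.

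In the RNA exosome, 14 of 15 genes were tested, with a median log2 fold change of 0.005 and a range from -0.11 to 0.095. *Exosc10*, the nuclear nuclease, and the helicase *Mtrex* had values of -0.04 and 0.03. *Exosc6* was listed at 0 in every library, while the other *Exosc* genes averaged from 5.88 CPM (*Exosc3*) to 82.8 CPM (*Exosc10*) in control. Whether this 0 reflects expression or the counting was not tested. Of 17 Krüppel-like factors 15 were tested, with a median of 0.0094. *Klf7*, at 495.3 CPM the most abundant of them in control DRG, had a log2 fold change of -0.03, and *Klf13* and *Klf6* had values of 0.0094 and 0.025. No exosome or Krüppel-like gene had an unadjusted p under 0.05, against 4.5% of all genes.

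Of the 7 genes matched in the list of BTB-kelch relatives of *Klhl1*, which had a median of -0.0055, *Klhl5* was far more abundant than *Klhl1*, at 157.5 TPM in control against 1.03 TPM. The GABA-B list of 6 genes had a median of -0.02. Both receptor subunits were measured at high levels, *Gabbr1* at 333.3 and *Gabbr2* at 182.2 TPM in control, and of their auxiliary subunits *Kctd8* stood at 83.0 TPM above *Kctd12* at 42.8 TPM. The log2 fold changes of these 3 genes were -0.03, -0.05 and 0.088. The list around *Tbc1d4* in glucose transporter traffic had 13 genes (median 0.020). *Tbc1d4* itself was its only gene with an unadjusted p under 0.05, against 4.5% of all genes. The related *Tbc1d1* had a log2 fold change of 0.07, and *Slc2a4*, the transporter that *Tbc1d4* is known to hold back, was low at 4.91 TPM in control. Of 10 genes around *Lmo7* and the nectin-afadin junctions (median -0.04), none had an unadjusted p under 0.05, with values of -0.03 for *Afdn* and -0.05 for *Actn4*.

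Finally, each neighbour's variation between libraries was compared with that of the other 17489 genes tested, by Pearson's r of log2 CPM after the group means were removed. Over 10 libraries and so many candidates, high values arise readily, and they are a description that includes shared depth and the replicate split. The gene most like *Kctd12* was *Egfr* (r = 0.98), most like *Lmo7* was *Sesn1* (0.98), most like *Mzt1* was *Atp2a2* (0.97) and most like *Klf5* was *Edn3* (0.95). For *Tbc1d4* it was *Ipp* (0.95), for *Klf12* *Nat10* (0.96), for *Dis3* *Mrps36* (0.98), for *Pibf1* *Acbd7* (0.94), for *Klhl1* *Mta3* (0.98) and for *Bora* the pseudogene *Gm5171* (0.91). None of these is another of the 10 neighbours. Between the neighbours themselves, the 45 pairwise values ran from -0.78 for *Klhl1* and *Klf12* to 0.78 for *Dis3* and *Kctd12*. The head-to-head pairs had negative values, -0.27 for *Mzt1* and *Bora* and -0.45 for *Dis3* and *Pibf1*. Values of this size over 10 libraries cannot decide whether members of a pair vary together, which was not tested.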

How the data were processed

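The authors made stranded mRNA libraries, aligned the reads to GRCm39 with STAR 2.7.8a and counted them per gene with featureCounts 2.0.1, as the methods and the submitters' processing notes give it, and deposited whole-number counts per gene and library, without normalization. Totals per library lay between 20465132 and 27528784 counts in control and between 19757596 and 34796562 in *WD1* cKO embryos, and precision was lowest for *Klhl1*, with at most 59 counts. Pairs of libraries within a group differed by more than sampling noise, so each counted as 1 replicate.

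The quasi-likelihood test of edgeR 4.0.16 (R 4.3.3) compared the groups, with TMM scaling and neither covariate nor block. It covered 17490 genes that reached 10 counts in 5 or more libraries, over which p was adjusted by Benjamini-Hochberg. The test was tested on simulated data. Symbols matched 52133 of 55414 identifiers and came, like exon lengths and distances, from the GENCODE annotation of GRCm38. TPM here divides counts by annotated exon length. The alternatives were DESeq2 1.42.0 (Wald test, and its size factors alone), no filter, the replicate number as a block, replicates 1 to 3 against 4 to 5 as a term, *Xist* as a covariate, a narrower window, and each library left out in turn. Non-overlap with plain library totals was added after the values were seen. Named are all 10 neighbours, *Dach1*, neighbourhood and listed genes past a threshold, up to 4 abundant genes a list, markers, and the genes most like each neighbour. Some other named genes, such as *Aurka*, *Plk1*, *Tubg1*, *Tbc1d1*, *Slc2a4* and *Pcdh9*, fall outside these rules. The neighbours, lists and alternatives were chosen with earlier results of these data known. Values of 1 gene near *Dach1* are not reported here.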

Additional observations from a re-analysis of the deposited data

How the results depend on the processing

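No neighbour had an adjusted p under 0.05 in the 16 alternatives that refitted them. Of 176 log2 fold changes of the neighbours and *Dach1* under alternatives, 167 kept their direction and side of the adjusted threshold and 9 reversed, all of *Klhl1*, *Klf5* or *Kctd12*. With *Xist* as a covariate *Klf5* turned to 0.031. With each library left out in turn, *Klhl1* ranged from -0.024 to 0.15 (negative without control replicate 1), *Klf5* from -0.062 to 0.028 (positive without control replicate 3 or *WD1* cKO replicate 5) and *Kctd12* from -0.11 to 0.058 (positive without any of control replicates 1 to 3 or *WD1* cKO replicates 4 and 5). *Tbc1d4* ranged from 0.11 to 0.21, *Mzt1* from 0.093 to 0.13 and *Dach1* from -0.95 to -0.89.

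In the same fits, neighbours with an adjusted p under 0.05 numbered 0 throughout, those past the study's cut-off 0 to 1 (*Tbc1d4* without control replicate 5), those lower in *WD1* cKO 2 to 4, and those whose groups did not overlap 1 to 2 (*Tbc1d4* added without control replicate 5). With library totals in place of scaling factors that number was 0. Of the genes within 10 Mb, 0 had an adjusted p under 0.05 and 0 to 1 met the cut-off (again *Tbc1d4*), or 1 without the filter, the pseudogene *Gm4355*. The median of the neighbours ranged from 0.023 to 0.054 and that of the genes within 10 Mb from 0.007 to 0.034. The latter was 0.055 within 5 Mb. Over all genes, 3 to 6 had an adjusted p under 0.05 and 52 to 96 met the cut-off. The adjusted count of 7 became 11 with the replicate set as a term, 4 with *Xist* and 18 in DESeq2's Wald test, and the 67 past the cut-off became 128 without the filter and 117 with the replicate set. The causes were not tested.

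Same-numbered libraries correlated by 0.329, 0.04, 0.32, 0.354 and 0.39 between the groups after group means were removed. Control replicates 1, 3 and 5 matched their own number best, while control replicate 2 matched number 1 best and control replicate 4 matched number 5. The labels give no litter, so the main test took no pairs, and whether the numbers mark pairs was not settled. With the replicate number as a block, 133 genes met the cut-off, against 67 without it, and 8 had an adjusted p under 0.05, none of them a neighbour. The few counts of *Klhl1* limit its precision.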
